A study of Mus musculus with 8 samples.

Results

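The 32 genes described here are the transcription factor NRF2 (*Nfe2l2*), its inhibitor KEAP1 (*Keap1*), 21 genes that NRF2 is known to activate and 9 general antioxidant enzymes. They were picked by name from the 24059 gene symbols counted in BMMCs, the mast cells that mouse bone marrow yields in culture. Marrow of C57BL/6 mice 6 to 8 wk old was differentiated with IL-3 for at least 4 wk and electroporated with Cas9-gRNA ribonucleoproteins (RNPs) carrying either guides against *Zc3h12a*, which encodes the RNase Regnase-1, or a scrambled guide. RNA was taken 1 wk later from resting cells, as 4 samples per RNP, each with a replicate number from 1 to 4. The labels call the scrambled RNP samples *Zc3h12a* WT and the *Zc3h12a* RNP samples *Zc3h12a* KO. All samples shared the electroporation, Cas9 and a medium with β-mercaptoethanol, a thiol reductant, and the methods describe neither cloning nor sorting before this RNA was taken. The study's design names 4 mice as the source of the cells, so samples with the same number were treated as a pair.

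NRF2 is made continuously and, in unstressed cells, KEAP1 hands it to a ubiquitin ligase for degradation. Oxidants and electrophiles modify cysteines of KEAP1, NRF2 then accumulates, pairs with a small MAF protein and binds the antioxidant response element (ARE) in its target genes. The targets supply glutathione, keep thioredoxin and peroxiredoxins reduced, raise NADPH through the pentose phosphate pathway and malic enzyme, and clear quinones and heme. Since NRF2 is controlled mainly at the level of the protein, its mRNA need not move with its targets. The general antioxidant enzymes, such as superoxide dismutases and catalase, are set by other factors as well, and *Prdx6*, placed among them here, is sometimes also counted as an NRF2 target.

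Matches to the letters of the ARE core TGACNNNGC, from the element that NRF2 binds, are shown first, in the genes that hold them near a start site. Binding of NRF2 to these matches was not measured. The core was searched on both strands from 250 bases before to 50 bases after each start site in RefSeq's promoter table (built on GRCm38.p6). Of the 32 genes, 26 had an entry. Those with none were *Gclc*, *Gsr*, *Abcc1*, *Gsta4*, *Hmox1* and *Prdx6*. The core was found in 7 of 16 NRF2 targets (43.8%), 1 of 8 general antioxidant enzymes and *Nfe2l2* itself, against 14% of 27025 genes in the table. Each window was matched to a unique place in GRCm39, whose coordinates are given. The core is in capitals, and every sequence reads 5′ to 3′ on the strand that carries it.

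The sequences are these:
*Gclm*, chr3:122039062-122039090, minus strand: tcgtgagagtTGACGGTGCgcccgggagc
*Txnrd1*, chr10:82694938-82694966, minus strand: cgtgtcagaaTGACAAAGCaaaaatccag
*Srxn1*, chr2:151947462-151947490, minus strand: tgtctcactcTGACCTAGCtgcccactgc
*Prdx1*, chr4:116542653-116542681, minus strand: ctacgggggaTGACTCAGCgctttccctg
*Me1*, chr9:86577955-86577983, minus strand: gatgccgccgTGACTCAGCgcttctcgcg
*Pgd*, chr4:149250518-149250546, minus strand: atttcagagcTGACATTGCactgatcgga
*G6pdx*, chrX:73472525-73472553, plus strand: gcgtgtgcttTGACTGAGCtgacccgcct
*Nfe2l2*, chr2:75535229-75535257, minus strand: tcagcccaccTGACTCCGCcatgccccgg
*Sod1*, chr16:90017584-90017612, minus strand: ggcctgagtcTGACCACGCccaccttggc

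Counted from the RefSeq start site, the core began at -134 in *Gclm*, -133 in *Prdx1*, -92 in *Txnrd1*, -57 in *G6pdx*, -56 in *Sod1* and -240 in *Nfe2l2*. It overlapped the start site in *Me1* (-6) and lay just after it in *Pgd* (4) and *Srxn1* (29). In *Txnrd1* it belonged to 1 of 3 start sites listed, and in *Me1* and *Pgd* to 1 of 2. The windows of *Prdx1* and *Me1* hold the same core, which contains TGACTCA, the site of AP-1 factors. *Nqo1*, a classical NRF2 target, held no match, which says only that these letters are not in this window.

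The scrambled RNP libraries held 19610240 to 33986762 counts and the *Zc3h12a* RNP libraries 23712029 to 28564062. The 32 genes took 0.356% to 0.455% of the former and 0.425% to 0.566% of the latter. Levels below are CPM, the counts of a gene relative to all counts of its sample, scaled to library sizes normalized by the TMM method. The targeted mRNA, *Zc3h12a*, was at 25.0, 38.0, 37.1 and 39.3 CPM in scrambled RNP replicates 1 to 4 and at 26.8, 41.1, 32.2 and 32.6 CPM in the matching *Zc3h12a* RNP samples. Of its pairs 2 were higher and 2 lower, so its mRNA level gives no check of the labels, and Cas9 edits need not lower an mRNA. Mast cell genes summed, over 13 markers, to 60500 to 70100 CPM after scrambled RNP and 57200 to 61000 CPM after *Zc3h12a* RNP. The protease *Cpa3* was at 31170 ± 3611 and 27810 ± 1791 CPM (SD, n = 4), the receptor *Kit* at 3459 ± 503 and 3345 ± 641 CPM, and the IgE receptor chain *Fcer1a* at 2468 ± 426 and 2422 ± 278 CPM. Of the 13, 12 were lower after *Zc3h12a* RNP (median log2 difference -0.10). Of all 14934 genes tested 42.2% were lower, and 51.2% of the 9668 with a mean log2 CPM above 2. At an unadjusted p of at most 0.05 by edgeR's quasi-likelihood test 3 of the 13 were lower, against 4.05% and 6.11%. These markers, named after their values were seen, were *Hdc* (-0.75), *Tpsb2* (-0.28) and *Srgn* (-0.23). The part of this shift of mast cell markers in the values of the redox genes was not tested. Markers of erythroid cells, which are rich in catalase and peroxiredoxins, summed to 3.47 to 7.89 CPM over 8 genes, with *Hba-a2* at 0 in all samples. Macrophage markers summed to 12.7 to 18.6 CPM over 9 genes, neutrophil markers to at most 0.333 CPM over 4, and B and T cell markers to at most 2.71 and 5.71 CPM over 5 genes each. The 4 basophil markers summed to 1790 to 2570 CPM after scrambled RNP and 1770 to 2310 CPM after *Zc3h12a* RNP. Means after scrambled RNP were 1675 CPM for *Itga2b*, 511 for *Cd200r3*, 4.08 for *Mcpt8* and 1.44 for *Prss34*.

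The mRNA levels of the redox genes in resting mast cells were read from the scrambled RNP samples, per kilobase of canonical transcript. The order of the genes depends on these lengths, such as 5.315 kb for *Sod1* (207.7 CPM) and 1.072 kb for *Gpx1* (503.7 CPM). Whether the cells use the canonical transcripts was not checked. In mean CPM alone, *Tkt* (515.5) was level with *Gpx1*, and *Txnrd1* (349.8) was above *Gpx4* (278). Per kilobase, the glutathione peroxidases stood at the top. *Gpx1*, the cytosolic selenoenzyme that reduces hydrogen peroxide, was at 469.9 ± 81.0 CPM per kb (SD, n = 4), and *Gpx4*, which reduces lipid peroxides, was at 289.9 ± 18.4 CPM per kb. The transketolase and transaldolase of the pentose phosphate pathway followed, at 160 ± 39.7 (*Tkt*) and 159 ± 34.1 CPM per kb (*Taldo1*), and then thioredoxin (*Txn1*, 124 ± 47.5 CPM per kb), thioredoxin reductase (*Txnrd1*, 105 ± 40.3 CPM per kb) and catalase (*Cat*, 100 ± 18.4 CPM per kb). Most genes lay between 10 and 70 CPM per kb, with *Nfe2l2* at 20.04 ± 6.37 and *Keap1* at 24.1 ± 2.56 CPM per kb. At the low end were malic enzyme (*Me1*, 4.14 ± 1.26 CPM per kb), the cystine transporter xCT (*Slc7a11*, 0.278 ± 0.187 CPM per kb) and *Gsta4*, a glutathione S-transferase (0.141 ± 0.0514 CPM per kb). Of the 31 gaps between neighbours in this order, 5 were larger than the sum of the SDs of both genes: those below *Gpx1*, *Gpx4*, *Cat*, *Sod2* and *Me1*. The remaining neighbours did not differ beyond their spread.

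**Figure D1:**
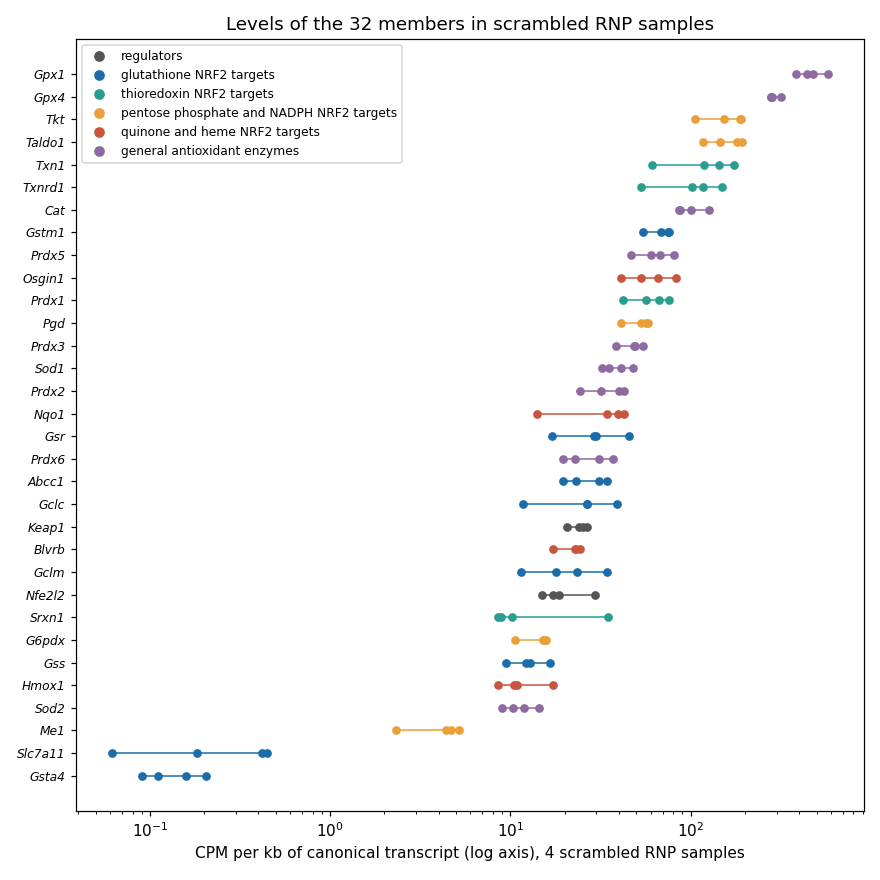
Level of each of the 32 genes in the 4 scrambled RNP samples, in CPM per kb of canonical transcript on a log axis; each point is a sample, lines span the lowest to the highest, and colors mark the role. *Gpx1* and *Gpx4* are highest, and *Slc7a11* and *Gsta4* lie below 1 CPM per kb.

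Of the 32 genes, 31 passed the filter on low counts and were tested. *Gsta4* did not, with 6 to 11 reads per scrambled RNP library and 2 to 12 per *Zc3h12a* RNP library. In the test across 14934 genes, the call needed a log2 fold change (log2FC) above 0.5 or below -0.5 together with an adjusted p of at most 0.05. None of the 31 genes was called by edgeR's quasi-likelihood test (lowest adjusted p = 0.424), and 0% of all genes tested were called higher and 0% lower. At an unadjusted p at or under 0.05, 10 of the 31 genes were higher after *Zc3h12a* RNP, where 2.12% of all genes tested were, and 1 was lower, where 4.05% of all genes tested were. Among the 9668 genes with a mean log2 CPM above 2, a background closer in level to these genes, the shares were 3.25% and 6.11%. DESeq2 called 2 of the 31 genes higher, where it called 0.0536% of all genes tested higher and 0.335% lower, and limma-trend called none. At that unadjusted p DESeq2 had 7 of the 31 higher and 1 lower, against 0.857% and 3.33% of all genes tested, and limma-trend had 9 and 1, against 2.1% and 4.06%. Leaving out replicate 1 or 3, both samples of the number, brought the 10 down to 4 and 3. The share of all genes tested that were higher fell as well, to 0.714% and 0.498%. In all 4 pairs, 10 of 31 were higher (4.98% of all genes tested) and 1 was lower (8.54% of all genes tested). Among the 9668 genes, 6.35% were higher in all pairs and 11.4% lower. For each of the 31 genes the ranges of the groups overlapped. Of all genes tested, 0.261% had *Zc3h12a* RNP samples wholly above the scrambled RNP samples and 0.663% wholly below, and among the 9668 genes 0.248% and 0.921%. The genes were chosen with earlier results of these data known.

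All 10 genes higher at the unadjusted p were NRF2 targets, and 0 of the 9 general antioxidant enzymes and neither regulator passed it in any direction. Of the 20 tested NRF2 targets 18 were higher, and the median of their log2FC values was 0.27. The 9 general antioxidant enzymes had a median of 0.088, and 6 were higher. Over all genes tested the median was 0.038, with 57.8% above 0 and 42.2% below. Among the 9668 genes it was -0.0039, with 48.8% above 0 and 51.2% below. The difference between the classes was not tested. In bulk RNA, more transcript per cell cannot be told apart from more cells that carry it.

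**Figure D2:**
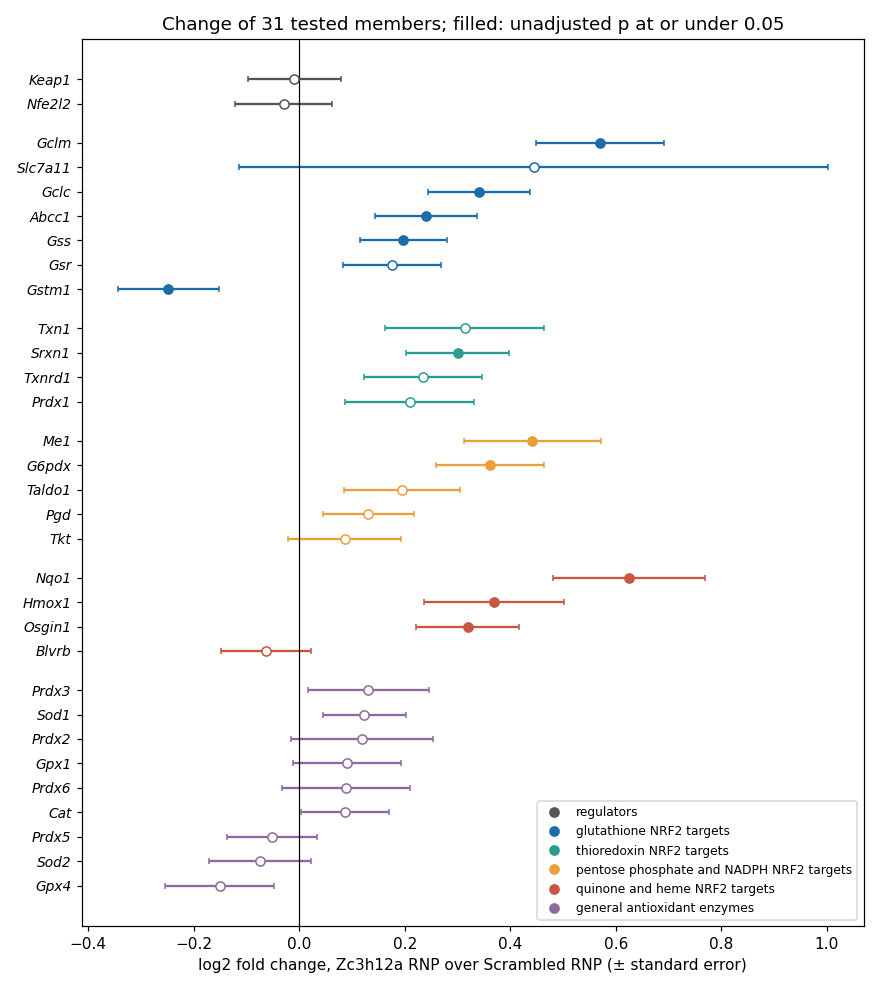
Log2 fold change of *Zc3h12a* RNP over scrambled RNP (log2FC, horizontal axis, with its standard error) for the 31 tested genes, grouped and colored by role; filled points have an unadjusted p at or under 0.05. The filled points to the right of 0 are 10 NRF2 targets, from *Gss* at 0.20 to *Nqo1* at 0.63, and the filled point to the left is *Gstm1* at -0.25.

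The regulators themselves stayed near 0. *Nfe2l2* was at 62.3, 66.9, 53.6 and 105 CPM in scrambled RNP replicates 1 to 4 and at 50.8, 70.5, 53.0 and 114 CPM in *Zc3h12a* RNP replicates 1 to 4. Both samples of replicate 4 stood above all the others, and 2 of the pairs went up and 2 down. Its log2FC was -0.029 with a standard error (SE) of 0.092. *Keap1* was at 76.5, 84.9, 81.0 and 65.9 CPM after scrambled RNP and at 88.4, 78.7, 72.7 and 66.8 CPM after *Zc3h12a* RNP. Its log2FC was -0.0095 (SE 0.088), and it too was higher in 2 pairs and lower in 2. Neither sign was stable: scaled by library size alone *Nfe2l2* was at 0.038 and *Keap1* at 0.059, and with upper quartile scaling *Keap1* was at 0.0023. Under the exact two-sided sign-flip test over pairs, 14 of 16 assignments gave as large a difference for *Nfe2l2* and 16 of 16 for *Keap1*, where a p of 0.125 is the smallest this design can give.

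*Nqo1* and *Gclm* had the largest differences. *Nqo1* encodes NAD(P)H quinone dehydrogenase, which reduces quinones by 2 electrons, and lies on chromosome 8 (108113835 to 108129934, GRCm39). Its level was 105, 114, 91.6 and 37.4 CPM in scrambled RNP replicates 1 to 4 and 146, 128, 162 and 78.1 CPM in the matching *Zc3h12a* RNP samples. Every pair went up, with log2 differences of 0.47, 0.17, 0.82 and 1.06 for replicates 1 to 4, and the groups overlapped through replicate 4, which was lowest in both. The fitted fold was 1.54, a log2FC of 0.63 with an SE of 0.14 (unadjusted p = 0.00281, adjusted p = 0.449 by edgeR's quasi-likelihood test).

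*Gclm*, the modifier subunit of glutamate-cysteine ligase, which makes the first step of glutathione synthesis, lies on chromosome 3 (122039126 to 122065061, GRCm39). It was at 114, 148, 219 and 73.0 CPM after scrambled RNP and at 221, 180, 284 and 116 CPM after *Zc3h12a* RNP in replicates 1 to 4. It was higher in 4 of 4 pairs, by 0.96, 0.28, 0.38 and 0.67. Its fitted fold was 1.49, with a log2FC of 0.57, an SE of 0.12 and an unadjusted p of 0.00188 (adjusted p = 0.424 by edgeR's quasi-likelihood test). Both genes were called in DESeq2's test with the same block (adjusted p = 0.0114 for *Gclm* and 0.0228 for *Nqo1*). Without replicate 2, edgeR called both, with log2FC values of 0.73 for *Gclm* and 0.84 for *Nqo1*, and also called 80 genes higher (0.53%) and 57 lower (0.378%) over the whole table. Without replicate 1, 3 or 4 it called neither, and the adjusted p of both was 1, 0.996 and 0.745. With no filter on low counts it called *Nqo1* alone (adjusted p = 0.0351). With no replicate block, none of the 31 genes passed the unadjusted p, where 0.1% of all genes tested were higher and 0.596% lower.

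**Figure D3:**
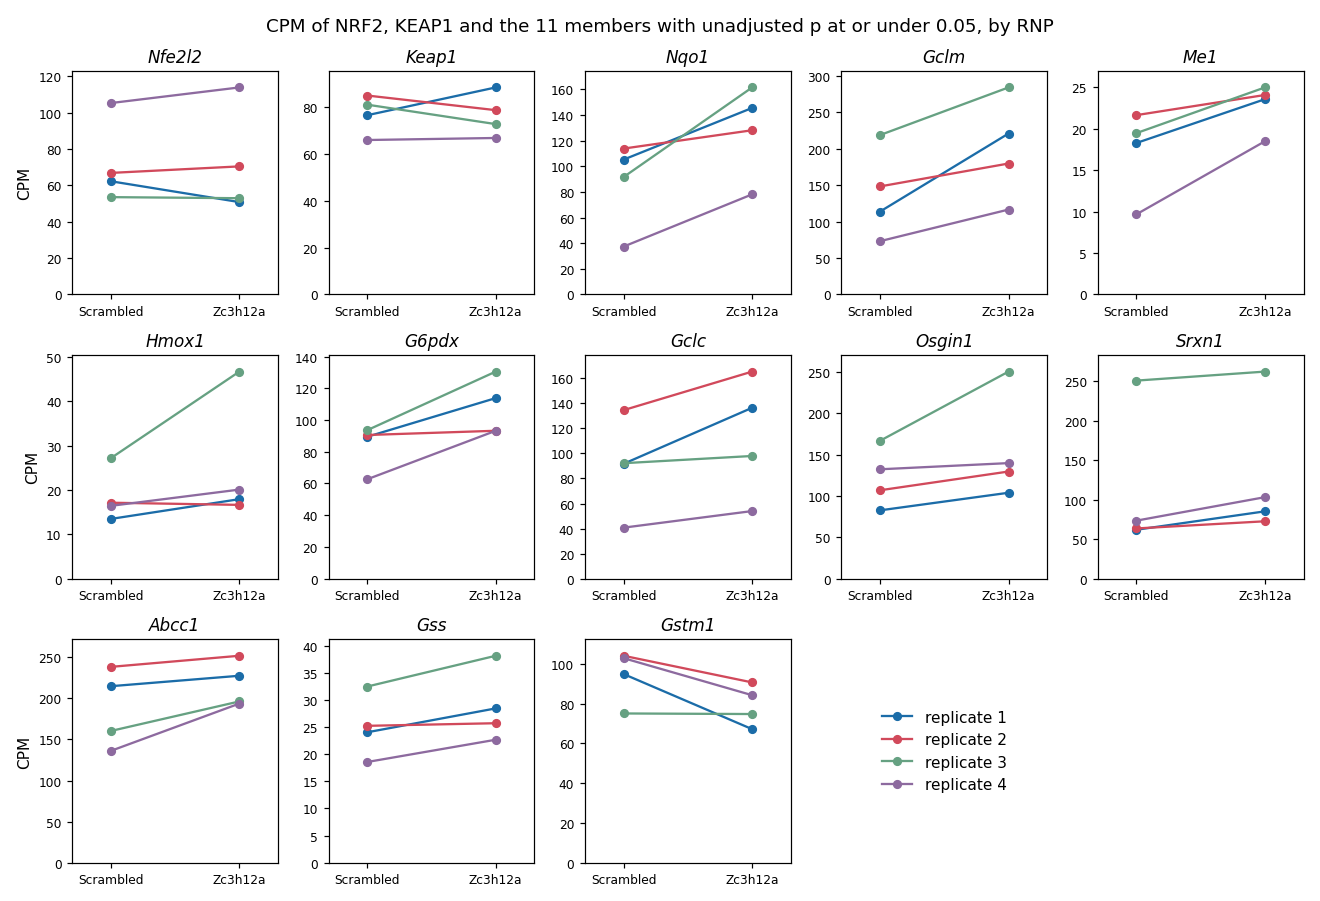
CPM of *Nfe2l2*, *Keap1* and the 11 genes with an unadjusted p at or under 0.05 (vertical axis from 0) in each sample, with a line joining the scrambled RNP and *Zc3h12a* RNP samples of a replicate. *Nqo1* and *Gclm* go up along all 4 lines, from 37.4 to 78.1 CPM for *Nqo1* in replicate 4.

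Of the other glutathione genes among the targets, 3 were higher and 1 was lower at the unadjusted p. *Gclc*, the catalytic subunit that works with *Gclm*, was at 91.7, 135, 92.2 and 40.7 CPM after scrambled RNP and 137, 165, 98.0 and 54.0 CPM after *Zc3h12a* RNP, so that 4 of 4 pairs were higher, replicate 3 least. Its log2FC was 0.34 (SE 0.096, unadjusted p = 0.00850). *Gss*, glutathione synthetase, which completes the tripeptide, was at 18.6 to 32.5 CPM in scrambled RNP samples and 22.7 to 38.1 CPM in *Zc3h12a* RNP samples. It was higher in every pair (0.24, 0.027, 0.23 and 0.29), with a log2FC of 0.20 (unadjusted p = 0.0462), and 0.31 without replicate 2. *Abcc1*, the transporter MRP1 that exports glutathione conjugates and leukotriene C4, was at 136 to 238 CPM and 194 to 252 CPM, and its 4 pairs were higher, pair 4 most (0.51). Its log2FC was 0.24 (unadjusted p = 0.0405), and 0.15 without replicate 4. *Gsr*, which regenerates reduced glutathione, was higher in 3 of 4 pairs with a log2FC of 0.18 (SE 0.092).

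*Slc7a11* imports the cystine from which glutathione is made, but its transcript was scarce. It had 53, 17, 98 and 87 reads in scrambled RNP replicates 1 to 4 and 69, 66, 104 and 63 in the matching *Zc3h12a* RNP samples. Its log2FC of 0.44 had an SE of 0.56 and rested on pair 2, where the difference was 2.195, and without replicate 2 the value was -0.058. At these counts no direction was detectable. A large difference in pair 2 was also seen in some other scarce genes, such as the oxidase subunit *Cybb* (2.209), but not in all. In pair 4 *Slc7a11* (-0.99) and *Cybb* (-0.83) were both lower after *Zc3h12a* RNP. The cause was not tested. *Gstm1*, a glutathione S-transferase, was the only NRF2 target lower at the unadjusted p. It was at 94.9, 104, 75.1 and 103 CPM after scrambled RNP and 67.2, 90.7, 74.8 and 84.3 CPM after *Zc3h12a* RNP, and all pairs were lower, pair 3 by a trace. Its log2FC was -0.25 (SE 0.096, unadjusted p = 0.0344), -0.12 without replicate 1 and -0.38 without replicate 3. *Gstm1* belongs to a cluster of similar genes, so reads may have been divided among them in counting.

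Of the thioredoxin system, *Srxn1* passed the unadjusted p. It encodes sulfiredoxin, which repairs overoxidized peroxiredoxins. It was at 61.9, 63.5, 251 and 73.4 CPM in scrambled RNP replicates 1 to 4 and at 85.2, 72.6, 262 and 103 CPM in *Zc3h12a* RNP samples. Replicate 3 stood far above the others in both groups, and within every pair *Srxn1* was higher after *Zc3h12a* RNP, with a log2FC of 0.30 (SE 0.098, unadjusted p = 0.0163). *Txnrd1*, the selenoenzyme that reduces thioredoxin, was at 338, 497, 389 and 176 CPM and at 457, 524, 375 and 245 CPM. It was higher in 3 of 4 pairs, with a log2FC of 0.23 (SE 0.11). *Txn1* itself (0.31, SE 0.15) and its partner peroxidase *Prdx1* (0.21, SE 0.12) shared another pattern. They were level or slightly lower in pairs 1 and 2, and higher in pairs 3 and 4 (0.63 and 0.72 for *Txn1*, 0.54 and 0.41 for *Prdx1*).

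In NADPH supply, the differences were largest at the entry of the pentose phosphate pathway and at malic enzyme. *G6pdx*, glucose-6-phosphate dehydrogenase, which commits glucose to the pathway, was at 89.4, 90.5, 93.6 and 62.6 CPM in scrambled RNP samples and 114, 93.2, 131 and 93.2 CPM in *Zc3h12a* RNP samples. The 4 pairs were higher, pair 2 by 0.042 and the others by 0.35 to 0.57, and the log2FC was 0.36 (SE 0.10, unadjusted p = 0.00859). *Me1*, which makes NADPH from malate, was at 18.3, 21.6, 19.5 and 9.66 CPM and at 23.5, 24.1, 25.0 and 18.5 CPM. Every pair was higher, and scrambled RNP replicate 4 was well below the others (log2FC 0.44, SE 0.13, unadjusted p = 0.0102, and 0.29 without replicate 4). *Pgd* (0.13), *Taldo1* (0.19) and *Tkt* (0.086), the later enzymes, were each higher in 3 of 4 pairs and lower in pair 2, and none passed the unadjusted p. *Tkt* was at -0.014 without replicate 4.

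Among genes of quinone and heme handling, *Hmox1* encodes heme oxygenase-1, which opens the heme ring to biliverdin. It was at 13.5, 17.1, 27.2 and 16.4 CPM after scrambled RNP and 17.9, 16.6, 46.7 and 20.1 CPM after *Zc3h12a* RNP. Replicate 3 was highest in both groups, and 3 of 4 pairs were higher (log2FC 0.37, SE 0.13, unadjusted p = 0.0257). Without replicate 3 the log2FC was 0.17 (unadjusted p = 0.306), and without replicate 2 it was 0.56. *Osgin1*, an oxidative stress–induced growth inhibitor, was at 82.7, 107, 167 and 132 CPM and at 104, 130, 251 and 140 CPM. All of its pairs were higher, pair 4 least, with a log2FC of 0.32 (SE 0.098, unadjusted p = 0.0125), and 0.18 without replicate 3. *Blvrb*, biliverdin reductase B, was near 0 (-0.062, SE 0.085) and lower in 3 of 4 pairs, though at 0.0062 when scaled by library size alone.

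The 9 general antioxidant enzymes had log2FC values between -0.15 and 0.13. The superoxide dismutases, which turn superoxide to hydrogen peroxide, had log2FC values of 0.12 (*Sod1*, cytosolic, higher in 4 of 4 pairs, SE 0.078) and -0.075 (*Sod2*, mitochondrial, lower in 3 of 4 pairs, SE 0.096). *Cat* was at 229, 226, 330 and 263 CPM after scrambled RNP and at 277, 224, 348 and 266 CPM after *Zc3h12a* RNP, a log2FC of 0.087 with an SE of 0.083. *Gpx1* (0.090, SE 0.10) and *Gpx4* (-0.15, SE 0.10) differed in sign, and *Gpx4* was lower in 3 of 4 pairs. Of the peroxiredoxins, mitochondrial *Prdx3* (0.13), cytosolic *Prdx2* (0.12) and *Prdx6* (0.088) were each higher in pairs 3 and 4 and lower in pairs 1 and 2. *Prdx5* was at -0.052, and at 0.016 when scaled by library size alone. The unadjusted p of these enzymes was 0.156 or above.

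The pairs did not contribute alike. The median difference of the NRF2 targets (log2) was 0.33, 0.034, 0.26 and 0.40 for replicates 1 to 4, with 16, 12, 18 and 17 of 20 higher. That of the general antioxidant enzymes was -0.089, -0.21, 0.25 and 0.019, with 3, 1, 9 and 6 of 9 higher. All genes tested had medians of 0.027, 0.0089, 0.0076 and -0.059, and the 9668 genes had -0.029, -0.081, 0.0047 and 0.064. In pairs 1 and 2 the medians of the classes lay on opposite sides of 0, and in pair 3 they were close together. Without replicate 3 or 4 the median of the NRF2 targets was 0.17 and 0.18, and without replicate 3 that of the general antioxidant enzymes was -0.033.

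A list of 30 genes of S phase and G2/M was also higher after *Zc3h12a* RNP. Its medians in pairs 1 to 4 were 0.33, -0.079, 0.20 and 0.96, its overall median was 0.35 and 30 of 30 genes were higher. At the unadjusted p 11 of them were higher, against 2.12% of all genes tested and 3.25% of the 9668, but none passed the adjusted p (lowest 0.645 by edgeR's quasi-likelihood test). In all pairs 4 of 30 were higher, against 4.98% of all genes tested and 6.35% of the 9668, and in pair 2 only 7 of 30 were. Summed, these genes were at 1730 to 3770 CPM in scrambled RNP samples and at 3000 to 4100 CPM in *Zc3h12a* RNP samples. As with the NRF2 targets, pair 2 had the smallest median and pair 4 the largest. Their part in the values of the redox genes was not tested.

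**Figure D4:**
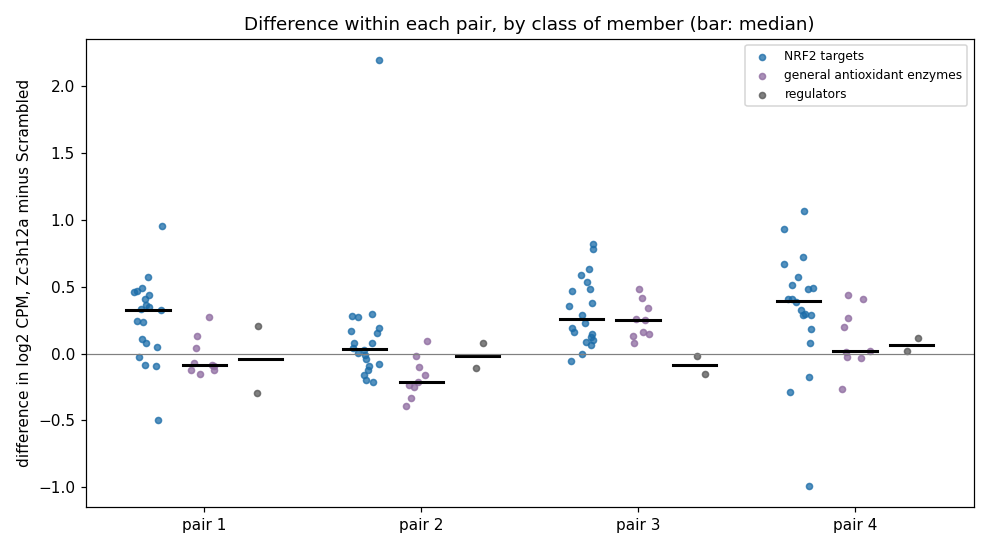
Difference in log2 CPM between the *Zc3h12a* RNP and scrambled RNP samples of each pair (vertical axis) for 20 NRF2 targets, 9 general antioxidant enzymes and 2 regulators; points are genes and bars are medians. The bars of the NRF2 targets lie above 0 in every pair, at 0.33, 0.034, 0.26 and 0.40, and the point at 2.195 in pair 2 is *Slc7a11*.

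Levels also differed between the pairs. Averaged over the samples of a pair, the range from the lowest to the highest pair had a median of 0.68 on the log2 scale over the 31 genes. Pair 4 was the lowest for 24 of the 31 genes. Scrambled RNP replicate 4, with the fewest counts, was the lowest scrambled RNP sample for 23 of them. *Zc3h12a* RNP replicate 4, with the most counts of its group, was the lowest of that group for 23. How often replicate 4 was lowest over all genes was not counted, so these numbers have no background beside them. Both samples of replicate 4 had the most *Nfe2l2* mRNA, at 105 and 114 CPM. Pair 3 was the highest for 11 genes, among them *Srxn1*, *Hmox1*, *Osgin1* and *Gclm*, and pair 2 for 14, among them *Gclc*, *Gsr*, *Txnrd1* and *Abcc1*. The range was widest for *Srxn1* (1.92) and *Gclc* (1.67) and narrowest for *Gpx4* (0.18).

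Among targets with a promoter entry, the 7 with the ARE core shown above had a median log2FC of 0.30, all were higher (0.13 to 0.57) and 4 passed the unadjusted p: *Gclm*, *Srxn1*, *Me1* and *G6pdx*. The 9 without it had a median of 0.20, 7 were higher, and 3 were higher and 1 lower at that p. *Nqo1*, with the largest difference, was among the latter. These are descriptions of a short window and were not tested.

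Other genes of the pathway were taken from lists written out by role. Of 73 tested genes in 6 lists, 1 was higher and 4 were lower at the unadjusted p, against 2.12% and 4.05% of all genes tested, and the median was 0.012. The split turned to 7 higher and 0 lower without replicate 2, and to 6 and 0 when scaled by library size alone. The split over all genes tested turned with it, to 4.58% higher and 1.72% lower without replicate 2, and 6.37% and 1.9% by library size alone. The 13 tested genes of a list of other reported NRF2 targets had a median of 0.16. Of these 10 were higher, where 57.8% of all genes tested and 48.8% of the 9668 were. In pair 2 their median was -0.15 and 4 of 13 were higher. In all 4 pairs 0 were higher and 1 was lower, against 4.98% and 8.54% of all genes tested. The list included *Aldh3a1*, an aldehyde dehydrogenase (21.8 ± 4.44 to 26.6 ± 2.94 CPM, SD, n = 4). Its log2FC was 0.31, with an unadjusted p of 0.0434 by edgeR's test. The ferritin light chain *Ftl1*, an iron store, had 0.29 (SE 0.13), and the transporter *Abcc4* had 0.22 (SE 0.11).

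NRF2's partners and control genes were centred on 0 (median -0.012 over 12 genes). *Maff*, a small MAF partner, was lower in 4 of 4 pairs, with a log2FC of -0.34 and an unadjusted p of 0.0394, and *Bach1*, a repressor of the same elements, was at 0.087. The 15 other glutathione genes had a median of -0.0072, and *Mgst2* (-0.44), a microsomal glutathione S-transferase, and secreted *Gpx3* (-0.28) were lower at the unadjusted p. Medians were 0.0026 over 15 other thioredoxin, glutaredoxin and peroxide genes, with mitochondrial thioredoxin reductase *Txnrd2* at 0.25 (SE 0.13), 0.020 over 11 other genes of NADPH supply, where *Idh1* (-0.25) was lower in 4 of 4 pairs at an unadjusted p of 0.0201, and -0.0014 over 7 subunits of the NADPH oxidase, the enzyme that makes superoxide in phagocytes. Within the oxidase, *Cybb*, its catalytic subunit, was at only 0.855 ± 0.763 CPM (SD, n = 4) in scrambled RNP samples.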

How the data were processed

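Libraries were made with the Tecan Revelo mRNA kit, and reads were aligned with HISAT2 2.2.1 to GRCm39 and counted per gene with featureCounts 2.0.1, per the submitters' processing notes. The authors deposited raw counts, as whole numbers without their later batch correction. The strand setting is not given in the sources used here. Exons of 7 of the 32 genes overlap a protein-coding gene on the other strand, where counting without strand could affect the values. They are *Gss*, *G6pdx* and *Me1*, reported above as higher at the unadjusted p, and *Sod1*, *Prdx2*, *Prdx5* and *Prdx6*. With genes of any type on the other strand, 19 of the 32 are overlapped.

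Counts were tested with edgeR 4.0.16 (R 4.3.3): filterByExpr, TMM, and the quasi-likelihood test, blocked on replicate number, with Benjamini-Hochberg adjustment over 14934 genes. The standard error is the log2 fold change divided by the root of F. A prior count of 2 entered each sample's log2 CPM. Alternatives used DESeq2 1.42.0, limma 3.58.1, other scalings and filters, and each replicate left out. The method was tested on simulated data. Levels per kb used GENCODE's canonical transcripts.

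Pairing came from the study's design; the labels do not say that a number marks a mouse. Deviations of same-numbered samples correlated at 0.756, 0.717, 0.728 and 0.719 over the 9668 genes with a mean log2 CPM above 2. Over all genes tested they correlated at 0.595, 0.0752, 0.624 and 0.0414. Samples of the 2 groups with different numbers correlated at up to 0.137 over the 9668 genes and 0.398 over all genes tested. Over all genes tested, pairs 2 and 4 were thus below some samples with different numbers. If a number does not mark a culture of its own, p-values measure the spread between samples only. Named genes are the 32, at most the 3 genes of lowest p in each other list, *Zc3h12a* and 3 mast cell markers (*Kit*, *Fcer1a*, *Cpa3*); other markers were named after their values were seen. Members and lists were chosen with earlier results of these data known; the background of 9668 genes was chosen after seeing the data.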

Additional observations from a re-analysis of the deposited data

Results flagged for a closer look

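Of 64 groups of 4 samples examined (31 genes and *Zc3h12a*, each RNP), 7 had 1 sample far from the other three, where chance gives about 3.2; the value is the gap to the nearest sample over the group's range. *Srxn1* was highest in replicate 3 in both groups, at 251 CPM against 61.9 to 73.4 after scrambled RNP (0.939) and at 262 CPM against 72.6 to 103 after *Zc3h12a* RNP (0.839). *Hmox1* was highest in *Zc3h12a* RNP replicate 3, at 46.7 CPM against 16.6 to 20.1 (0.885). *G6pdx* was lowest in scrambled RNP replicate 4, at 62.6 CPM against 89.4 to 93.6 (0.866). *Sod2* was lowest in *Zc3h12a* RNP replicate 4, at 52.7 CPM against 67.0 to 68.8 (0.887). *Gpx4* was highest in scrambled RNP replicate 2, at 304 CPM against 267 to 272 (0.864). *Zc3h12a* itself was lowest in scrambled RNP replicate 1, at 25.0 CPM against 37.1 to 39.3 (0.846). The cause of these single values was not tested.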

How the results depend on the processing

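Under 8 other settings the median of the NRF2 targets was 0.20 to 0.34 and that of the general antioxidant enzymes 0.068 to 0.16. Leaving out each replicate, they were 0.17 to 0.36 and -0.033 to 0.19. Genes called over the whole table (0 higher, 0 lower) numbered 8 higher and 50 lower in DESeq2, 9 and 31 with no low-count filter, 0 and 1 with limma-trend and with RLE scaling, and 0 and 3 with at least 10 counts in every sample; leaving out a replicate gave 0 to 80 and 0 to 57. Of the 32 genes, 2 were called in DESeq2, 1 with no filter and 0 to 2 with a replicate left out. Genes of the 32 at the unadjusted p (10 higher, 1 lower) were 0 and 0 with no replicate block, 17 and 0 by library size alone, 7 and 0 with RLE, 9 and 0 with no filter, and 3 to 13 and 0 to 1 with a replicate left out. Over all genes the unadjusted split was 317 higher and 605 lower, but 952 and 283 by library size alone, 492 and 531 with upper quartile scaling and 128 and 477 with RLE. It was 15 and 89 with no replicate block, 128 and 497 in DESeq2, and 368 and 237 of 23473 genes with no filter. Leaving out a replicate gave 74 to 691 and 139 to 480. Other pathway genes (1 higher, 4 lower) were 0 and 0 with no replicate block, 0 and 1 in DESeq2, 6 and 0 by library size alone, 2 and 0 with no filter, 2 higher with upper quartile scaling, 0 higher with limma-trend, RLE and the stricter filter, and 0 to 7 and 0 to 1 with a replicate left out.

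Some small values changed sign. *Nfe2l2* was at 0.0014 with no replicate block, 0.038 by library size alone and 0.0041 with no filter. *Keap1* was at 0.0023 with upper quartile scaling, 0.059 by library size alone and 0.024 with no filter. By library size alone *Blvrb* was at 0.0062 and *Prdx5* at 0.016. With a replicate left out the ranges were -0.087 to 0.10 (*Nfe2l2*), -0.039 to 0.085 (*Keap1*), -0.058 to 0.94 (*Slc7a11*), -0.17 to 0.029 (*Blvrb*), -0.21 to 0.074 (*Sod2*), -0.17 to 0.070 (*Prdx5*), -0.020 to 0.25 (*Gpx1*), -0.033 to 0.30 (*Prdx2*), -0.095 to 0.24 (*Prdx6*) and -0.014 to 0.25 (*Tkt*). The causes were not tested. Reads were few for *Gsta4*, at 2 to 12 per sample, and for *Slc7a11*, at 17 to 104.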
